A study of Caenorhabditis elegans with 2 samples.

Results

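The 8 tubulin genes described here were taken by name from the annotation: the general genes tba-1, tba-2, tba-4, tbb-1 and tbb-2, the neuronal gene tbb-4, and the touch-neuron genes mec-7 and mec-12, out of 19973 protein-coding genes. At each of them, sites of the forkhead transcription factor FKH-10 were read from chromatin immunoprecipitation sequencing (ChIP-seq) peak lists. The chromatin came from whole L1 larvae of Caenorhabditis elegans, both sexes pooled, of the strain OP337. Every animal carried the unc119(ed3) mutation and the integrated transgene wgIs377, which holds fkh-10 fused at the C-terminal end to TY1, EGFP and FLAG tags together with unc119 as the marker; the promoter and the cells in which the tagged protein was made are not stated in the labels. There was 1 group of 2 biological replicates and no second condition, and all values are from this 1 strain. The replicate lists held 28842 and 28896 peaks, the pooled list 19924 and the optimal set, thresholded by irreproducible discovery rate, 2602. The optimal set is the part of the pooled list with the highest signal, from 37.0 to 457 with a median of 60.7. Signals are as the authors deposited them, on a scale without a stated unit, so they are compared within a list only and carry no error. Read depth is unknown.

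Microtubules are hollow polymers of alpha- and beta-tubulin dimers, and the worm makes several forms of each subunit. TBA-1, TBA-2, TBB-1 and TBB-2 supply the spindles of the early embryo and are used widely. MEC-12 (alpha) and MEC-7 (beta) build the large-diameter microtubules of the touch receptor neurons, the few cells that sense gentle touch, and TBB-4 is a beta-tubulin of ciliated sensory neurons. FKH-10 is a forkhead protein, a class of factors that bind DNA through a winged-helix domain. In chromatin of whole animals, fewer cells with a bound site and weaker binding per cell cannot be told apart.

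Optimal FKH-10 summits lay upstream of most general tubulin genes and of mec-12, and none lay at mec-7, tbb-4 or tba-4. A summit was assigned to a gene when it lay between 5000 bp upstream of the gene start and the gene end. By this rule 5 of the 8 genes had an optimal summit, against 16.5% of all protein-coding genes. Of the general genes 4 of 5 had one, and of the touch-neuron genes 1 of 2. In the narrower promoter window, reaching 1000 bp before and 200 bp past the start, 4 of the 8 genes had an optimal summit (tba-2, tbb-1, tbb-2 and mec-12), against 6.38% of all genes. When a summit was given only to the protein-coding gene whose start was nearest, 3 of the 8 kept one, against 8.85%. They were tba-2, tbb-2 and mec-12. Nearest starts below are likewise those of protein-coding genes. The 8 genes together held 8 optimal summits, 1.32 per 10 kb of window, and the windows of all genes, which overlap each other, held 0.257 per 10 kb. All 8 summits were upstream of the gene start and none was inside a tubulin gene. The members are genes and not replicates, so no test was made on these counts.

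**Figure D1:**
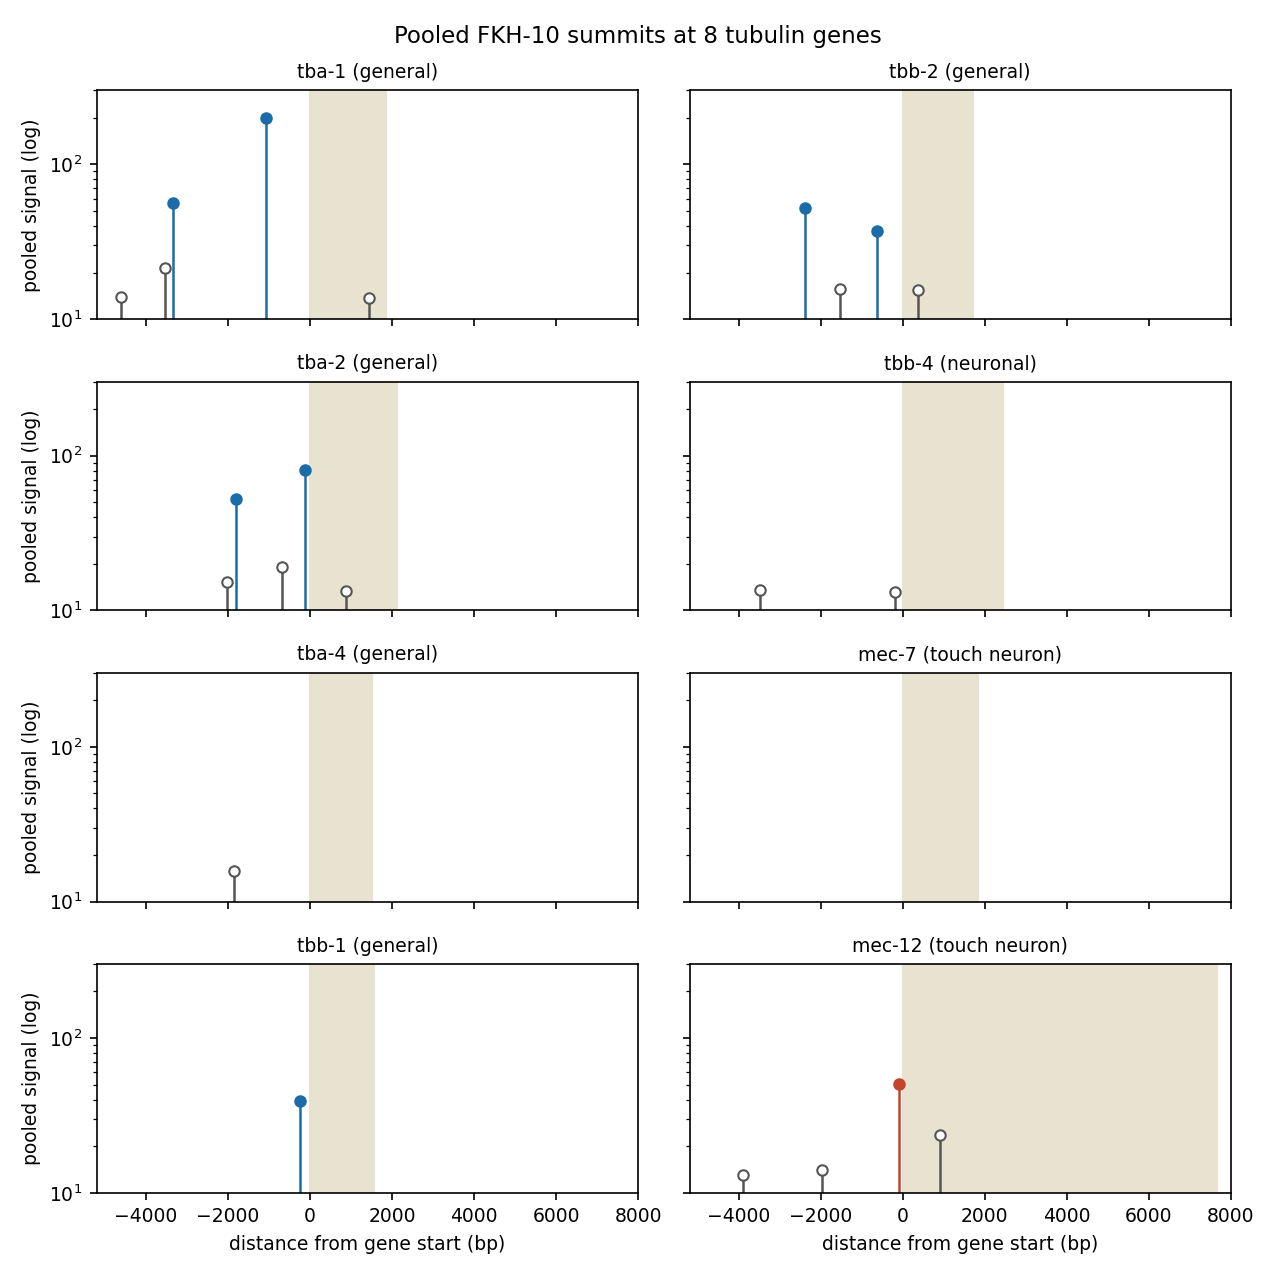
Each panel shows 1 tubulin gene, with the distance from its annotated start in bp on the x axis, the pooled signal on a log y axis and the gene body shaded. Filled points are optimal summits and open points are pooled summits outside the optimal set. Filled points stand upstream of tba-1, tba-2, tbb-1, tbb-2 and mec-12, from 37.3 to 200.2 in signal, and the mec-7 panel is empty.

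The strongest of these summits belonged to the alpha-tubulin gene tba-1 by position, but its closest gene start was that of another gene. tba-1 (WBGene00006528) lies on chromosome I from 9785781 to 9787624 on the minus strand, and cox-5B, which encodes a subunit of cytochrome c oxidase, is its upstream neighbour, head to head across a gap of 1100 bp. The peak from 9788610 to 9788809 had a pooled signal of 200.2, rank 45 of 19924. Its summit lay 1076 bp upstream of the tba-1 start and 25 bp from that of cox-5B. The signal was 105.95 in replicate 1 and 96.8 in replicate 2, where the peak ranked 50 and 44, so it was near the top of both lists. A further optimal summit 3333 bp upstream, past the 3′ end of cox-5B, had a pooled signal of 56.3, with 26.1 in replicate 1 and 29.3 in replicate 2. The start of the shorter tba-1 transcript is 1310 bp from the stronger summit.

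At the alpha-tubulin gene tba-2 (WBGene00006529; chromosome I, 12964674 to 12966795, minus strand) the stronger optimal summit lay close to the start of the gene itself. The peak, from 12966736 to 12967111, had its summit 129 bp upstream and a pooled signal of 81.1, rank 741. The replicates gave 40.6 and 39.7, with ranks 907 and 726. A shorter tba-2 transcript begins 653 bp from this summit. The other optimal summit, 1809 bp upstream with a pooled signal of 52.1, lay 324 bp from the start of pbs-2, a proteasome subunit gene on the same strand. In replicate 2 the summit of this site was nearest to another start, that of eif-6, 326 bp away. Among the optimal summits of the tubulin genes, the one 1809 bp upstream differed most in rank between replicates. It ranked 4293 in replicate 1 (signal 16.8) and 1151 in replicate 2 (signal 31.2).

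The alpha-tubulin gene tba-4 (WBGene00006530; chromosome II, 10918706 to 10920211, plus strand) had no optimal summit. Its window held 1 pooled summit, 1865 bp upstream in a coding exon of the head-to-head neighbour F44F4.10, with a signal of 15.9 and rank 11057. Replicate 1 listed that summit with 12.5, and replicate 2 listed no summit anywhere in the window. The nearest optimal summit was 49745 bp from the tba-4 start, and 79.6% of protein-coding genes had one as close or closer.

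Both general beta-tubulin genes had optimal summits near the lower edge of the optimal set. tbb-1 (WBGene00006536; chromosome III, 10740868 to 10742432, minus strand) had a peak from 10742485 to 10742860 with a pooled signal of 38.9, rank 2434. Its summit lay 241 bp upstream of tbb-1 and 137 bp from the start of rib-2, a heparan sulfate synthesis gene that is head to head with tbb-1 across 377 bp. The replicates gave 21.6 (rank 2624) and 15.7 (rank 3105). tbb-2 (WBGene00006537; chromosome III, 4015910 to 4017627, minus strand) had a peak from 4018067 to 4018442 with a pooled signal of 37.3, rank 2584, and replicate signals of 21.3 (rank 2686) and 15.9 (rank 3063). Its summit lay 628 bp upstream of tbb-2, within an exon of the non-coding RNA gene C36E8.10. Neither of these summits was among the first 2602 of either replicate. The second tbb-2 peak, from 4019830 to 4020205, was stronger, with a pooled signal of 52.2 and replicate signals of 28.3 and 20.004. Its summit lay 2391 bp upstream of tbb-2 and 19 bp from the start of the head-to-head neighbour snpc-3.4.

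The reference sequences around the 3 beta-tubulin summits are printed below, and the extent of the precipitated DNA is not known from a summit. They are from the RefSeq copy of WBcel235, whose coordinates are those of ce11, and are written on the minus strand, the strand of the tubulin gene. The first and last are 75 bp to each side of the summit, which is base 76. The middle one stops at the start of snpc-3.4, and its summit is base 19. None of the words searched for (given further on) is in them, so no base is in capitals.
tbb-1, chrIII:10742598-10742748: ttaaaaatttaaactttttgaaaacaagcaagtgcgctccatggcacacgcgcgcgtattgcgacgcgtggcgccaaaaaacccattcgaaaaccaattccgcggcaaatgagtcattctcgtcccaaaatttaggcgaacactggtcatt
tbb-2 beside snpc-3.4, chrIII:4019943-4020036: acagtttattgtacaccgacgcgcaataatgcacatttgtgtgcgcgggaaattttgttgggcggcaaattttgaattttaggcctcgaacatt
tbb-2 within C36E8.10, chrIII:4018180-4018330: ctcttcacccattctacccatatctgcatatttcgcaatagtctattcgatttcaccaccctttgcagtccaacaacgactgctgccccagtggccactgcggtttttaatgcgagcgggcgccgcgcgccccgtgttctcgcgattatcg

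At tbb-4 (WBGene00006538; chromosome X, 9434452 to 9436893, minus strand) no optimal summit was listed, and the pooled ones were weak. The pooled list had 2 in its window, 189 bp upstream with a signal of 13.2 (rank 17287) and 3486 bp upstream, in an exon of memb-1, with 13.6 (rank 16219). Replicate 2 had a summit near the first, with a signal of 9.72 (rank 6724), and replicate 1 had none within 100 bp of either. The strongest summits of the replicate lists in the window were at other places, 2142 bp upstream with 9.32 in replicate 1 and 4809 bp upstream with 11.4 in replicate 2. Their ranks were 19139 of 28842 and 4987 of 28896, so the replicate 2 summit stood within the first 17.3% of its list, against 81.4% for the strongest pooled summit. The replicates thus did not list the same site. The nearest optimal summit was 6068 bp upstream of tbb-4, outside the window, with a signal of 46.4.

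The touch-neuron genes differed from each other. mec-12 (WBGene00003175; chromosome III, 3131574 to 3139234, minus strand) had an optimal peak from 3139127 to 3139502 with a pooled signal of 50.8, rank 1717. The replicate signals were 27.3 (rank 1771) and 25.1 (rank 1652). The summit lay 81 bp upstream of the mec-12 start, closer than that of any other tubulin gene here, and the start of mec-12 was the nearest of all protein-coding genes. As few as 0.881% of protein-coding genes had an optimal summit this close to their start. A weaker pooled summit, 915 bp inside the gene in an intron, had a signal of 23.7, with 8.60 in replicate 1 and 13.98 in replicate 2.

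mec-7 (WBGene00003171; chromosome X, 7774856 to 7776689, minus strand) had neither an optimal nor a pooled summit in its window, and it was the only one of the 8 tubulin genes without a pooled one. Replicate 1 listed 1 summit, 853 bp upstream with a signal of 10.1 (rank 15907), and replicate 2 listed 1, 4515 bp upstream with a signal of 6.61 (rank 15393). Both were in introns of ZK154.4, the upstream neighbour on the same strand, and they were not the same site. The nearest optimal summit was 46558 bp away, and 78.0% of protein-coding genes had one as close or closer.

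The sequence at the mec-12 summit and the 250 bases before the mec-7 start are shown side by side, since these partners of the same microtubules were listed differently. Both are from the RefSeq copy of WBcel235 and on the minus strand. In the mec-12 sequence the summit is base 76. Capitals mark words searched for: GAGAGA, read as TCTCTC where it is on the other strand, and, in mec-7 alone, AATGCAT, a word of touch neuron gene promoters, read as ATGCATT.
mec-12 summit, chrIII:3139240-3139390: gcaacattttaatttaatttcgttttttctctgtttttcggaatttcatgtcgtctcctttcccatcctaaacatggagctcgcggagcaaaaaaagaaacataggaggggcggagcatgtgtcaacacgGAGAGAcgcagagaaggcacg
mec-7 upstream, chrX:7776690-7776939: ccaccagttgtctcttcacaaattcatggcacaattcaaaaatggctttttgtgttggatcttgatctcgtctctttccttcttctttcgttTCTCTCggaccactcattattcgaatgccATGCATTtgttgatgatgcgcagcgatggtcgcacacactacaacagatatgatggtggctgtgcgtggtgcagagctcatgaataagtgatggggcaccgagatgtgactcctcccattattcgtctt

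The question of the comparison was whether general and touch-neuron tubulin genes differ in FKH-10 sites. Side by side, the optimal summit nearest to the start was 1076 bp away at tba-1, 129 at tba-2, 49745 at tba-4, 241 at tbb-1 and 628 at tbb-2. It was 81 bp away at mec-12 and 46558 at mec-7. The mec-12 distance was below all 5 general ones, and the mec-7 distance lay between those of tba-1 and tba-4, so the touch-neuron genes did not lie on 1 side of the general genes. The median was 628 bp for the 5 general genes, 23320 bp for the 2 touch-neuron genes, 852 bp for all 8, and 18661 bp for all protein-coding genes (quartiles 7047 and 41445). By signal, the mec-12 summit (50.8) was weaker than the strongest summits of tba-1, tba-2 and tbb-2 (200.2, 81.1 and 52.2) and stronger than that of tbb-1 (38.9). With 2 touch-neuron genes, neither the difference in distance nor that between 4 of 5 and 1 of 2 was tested. By subunit, 3 of 4 alpha-tubulin genes and 2 of 4 beta-tubulin genes had an optimal summit.

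**Figure D2:**
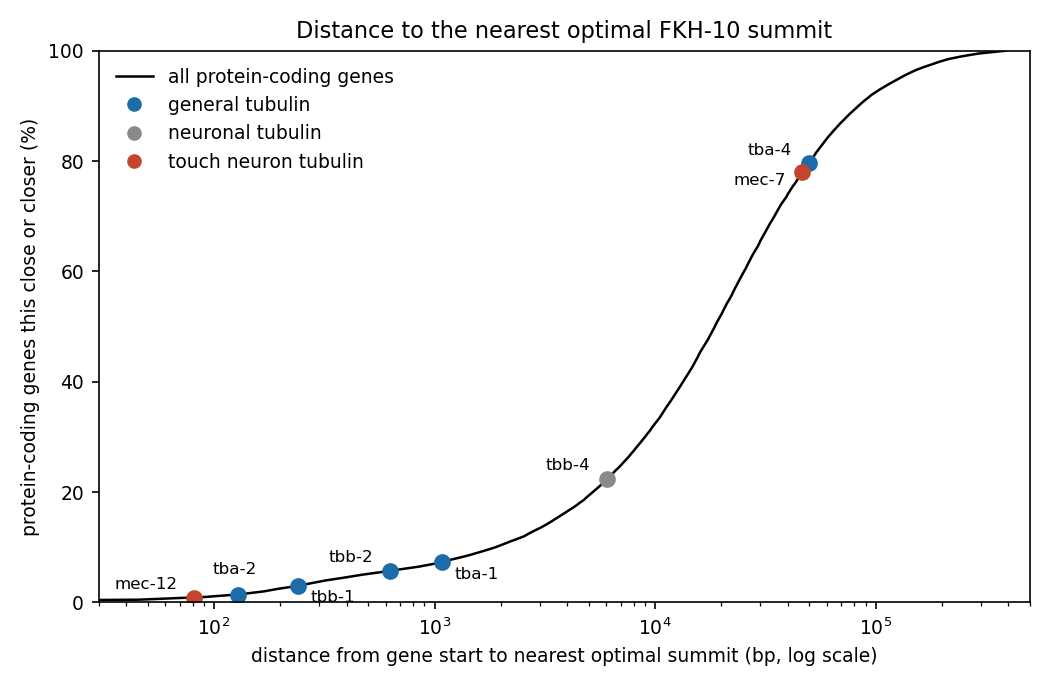
The x axis is the distance in bp from a gene start to the nearest optimal summit, on a log scale, and the y axis is the share of 19973 protein-coding genes that are as close or closer. The line is all genes and the points are the 8 tubulin genes by group. 5 points, 1 of them the touch-neuron gene mec-12 at 81 bp, lie at the lower left, and tba-4 and mec-7 lie together at 49745 and 46558 bp.

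The optimal summits of the tubulin genes were listed in both replicates and most of the weaker ones were not. The optimal set is thresholded by irreproducible discovery rate, a measure of agreement between replicates. Its peaks were thus selected in part for being in both, and the contrast is no separate evidence on these genes. A summit of each replicate lay within 100 bp of all 8 optimal summits, and of 2464 of the 2602 optimal summits of the genome (94.7%). Of the 14 other pooled summits in the tubulin windows, with signals from 13.1 to 23.7, 3 were paired in both replicates, 7 in 1 replicate and 4 in neither. The share among all pooled summits outside the optimal set was not counted, so these counts are not read as a trait of tubulin genes. Any pooled summit at all was found at 7 of the 8 genes, against 70.7% of all genes. A summit of replicate 1 was found at all 8, against 84.1%, and one of replicate 2 at 7, against 83.4%. These shares are near those of all genes, so a summit in those longer lists says little about a tubulin gene.

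**Figure D3:**
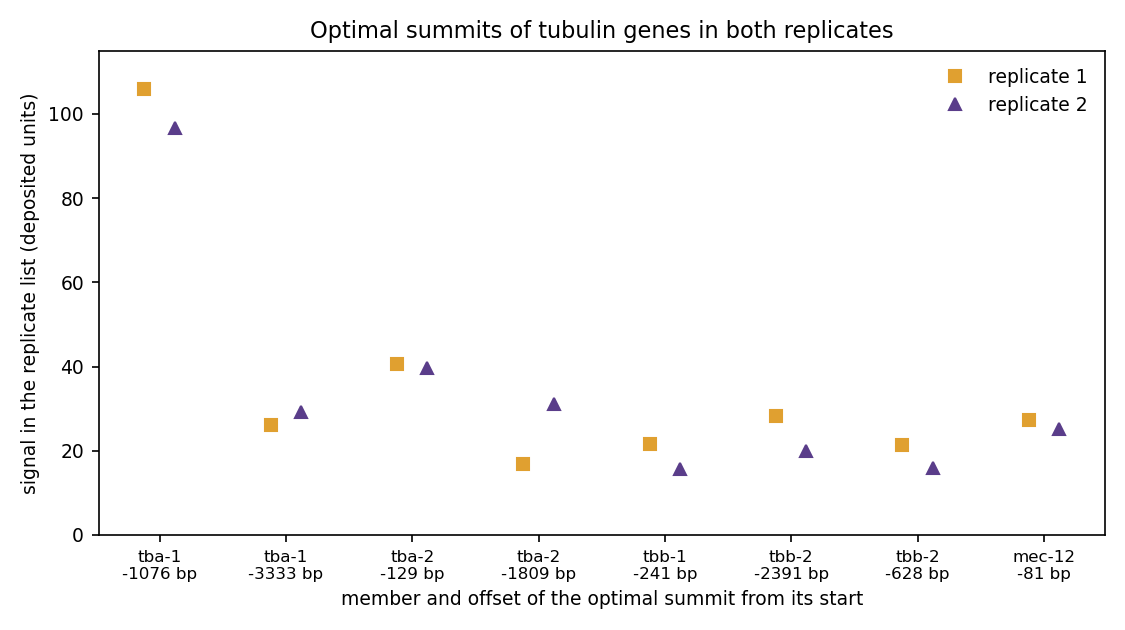
The x axis lists the 8 optimal summits by tubulin gene and offset from the gene start, and the y axis is the deposited signal in each replicate list, with 1 point per replicate. The tba-1 summit beside cox-5B stands apart at 105.95 and 96.8, and the remaining points lie between 15.7 and 40.6.

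A head-to-head protein-coding neighbour lay upstream of 4 of the 8 tubulin genes, near the share among all protein-coding genes, 45.4%. These were 4 of the 5 general genes (tba-1, tba-4, tbb-1 and tbb-2) and none of tbb-4, mec-7 and mec-12. In groups this small the contrast was not tested, and nothing is read from it. With a head-to-head neighbour within 5000 bp, 18.4% of all protein-coding genes had an optimal summit in the window. With a neighbour on the same strand within that distance, 13.4% did. Of the 8 optimal summits, 3 had their own tubulin gene as the nearest protein-coding start, at tba-2, tbb-2 and mec-12. The remaining 5 were nearest to cox-5B (2 of them), pbs-2, rib-2 and snpc-3.4. Starts of non-coding genes were closer in some cases. The tbb-2 summit 628 bp upstream lay 138 bp from the start of C36E8.10. The tba-1 summit 3333 bp upstream lay 1711 bp from that of F26E4.14, against 2232 bp for cox-5B. Which gene of a shared region a site acts on was not tested. The annotated start is also not always where transcription begins, since many worm messages are trans-spliced. The splice acceptor word TTTCAG, looked up after the sequences had been seen, stood directly before the starts of tba-4, tbb-1, tbb-2 and tbb-4, and before 12.3% of all protein-coding gene starts.

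No word searched for was found within 50 bp of the 8 summits. The words were the forkhead words GTAAACA or GTAAATA or ATAAACA or ATAAATA, the GA repeat GAGAGA, the E-box CACGTG, the GATA word TGATAA, the homeodomain word TAATTA and AATGCAT, each on both strands, and no match overlapped one of another word in the sequences printed here. Over all optimal summits, windows of 101 bp held a forkhead word in 5.03%, GAGAGA in 25.7% and each other word in 1.08% to 2.998%, and nothing is read from 0 of 8 windows beside these shares. In promoter sequences from 250 bases before to 50 after the start, a forkhead word was present at tba-1 and tbb-4, against 33.9% of all promoters. GAGAGA was present at 6 of the 8 genes, all but tba-1 and tbb-4, against 21.8%. TGATAA was present at tba-2 and tbb-1, against 30.2%, CACGTG at tbb-2, against 5.82%, and TAATTA at none of the 8, against 15.5%. AATGCAT was present at mec-7 and at none of the others, against 4.52%. A match is only these letters and says nothing of a factor. G and C made up from 35.6% to 56.4% of the 101 bp at the 8 summits, and the median of all optimal windows was 45.5%. The shares above it were 56.4% at the tba-1 summit beside cox-5B and at that of tbb-1, 54.5% at the tbb-2 summit within C36E8.10 and 49.5% at the other tbb-2 summit. mec-12 stood at 45.5%, and the shares below were 44.6% at the farther tba-1 and the nearer tba-2 summit and 35.6% at the farther tba-2 summit.

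Genes that work with tubulin also had optimal summits in part. Of 21 matched genes listed under microtubule binding and severing, 5 had an optimal summit in the promoter window (23.8%, against 6.38% of all genes). In the full window 11 of the 21 had one (52.4%, against 16.5%). Not every gene of the list is known here to encode a protein of that kind. The strongest were at unc-44, an ankyrin gene, with a signal of 101.6, 1242 bp upstream (58.1 and 45.7 in the replicates), at ptrn-1, whose product caps minus ends, with 91.6, 495 bp upstream (36.3 and 53.6), and at the kinesin heavy chain gene unc-116 with 76.8, 1532 bp upstream (41.5 and 33.9). Windows of this list had a median length of 10191 bp, against 7027 bp for all genes, so its counts rest on more sequence per gene. Among the 11 was unc-119, the marker carried by the transgene, with a signal of 60.9, and without it the count was 10 of 20.

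Of 12 tubulin folding cofactor and prefoldin genes, 4 had an optimal summit (33.3%, against 16.5% of all genes), and 2 had one in the promoter window (16.7%, against 6.38%). They were led by tbcc-1 with a signal of 156.6, at a summit 2385 bp upstream within an intron of cox-6B, and by the prefoldin gene pfd-1 with 114.8, 321 bp upstream. Only 1 of the 4 had a summit whose nearest start was its own, and that was pfd-3, with a summit 12 bp upstream and a signal of 38.3. Of 10 tubulin modification genes 3 had a summit in the window, against the same 16.5%, and 1 in the promoter window, against 6.38%. They were ttll-5 and ttll-4, named for tubulin tyrosine ligase-like enzymes, with 69.5 and 59.1, and ccpp-6, a tubulin deglutamylase gene, with 58.0. The stronger ttll-5 summit lay 4019 bp upstream of ttll-5 and 73 bp from the start of C55A6.1. It had a signal of 36.1 in replicate 1 and no summit of replicate 2 within 100 bp. A second optimal summit close by, 3819 bp upstream of ttll-5 with 40.3, had 19.0 in replicate 1 and 34.9 in replicate 2. The ccpp-6 summit had 31.5 and 24.9 in the replicates. The ttll-4 summit, 355 bp upstream with 27.5 and 32.8, was alone in having its own gene as nearest start.

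Among 8 other tubulin genes, 2 had an optimal summit in the window and 1 in the promoter window, against 16.5% and 6.38% of all genes. ben-1, the beta-tubulin gene that gives sensitivity to benzimidazole drugs, had one 689 bp upstream with a signal of 37.4, close to the lower edge of the optimal set, and its replicate signals were unequal, 25.4 and 8.27. The gamma-tubulin gene tbg-1 had one 2330 bp upstream with 45.9, nearest to the start of ubc-7. Of 8 genes of the gamma-tubulin complex and centrosome, 2 likewise had a summit in the window and 0 in the promoter window, against the same shares. Nothing is read from such counts. The genes with a summit were the Aurora A kinase gene air-1 with 61.1 and the scaffold gene spd-5 with 55.3. The spd-5 summit lay in an intron 215 bp past the spd-5 start, just beyond the promoter window, and that start was the nearest. The air-1 summit lay 3678 bp upstream, in an exon of K07C11.8 and 74 bp from the start of K07C11.8.

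Genes of the touch receptor neurons other than the tubulins had an optimal summit at 1 of 14 (7.14%), against 16.5% of all genes, and at 0 of 14 in the promoter window, against 6.38%. That 1 was mec-8, an RNA-binding protein gene, with a summit 1646 bp upstream and a signal of 81.6. The genes without one included mec-3 and unc-86, which encode the factors that specify these cells, the channel genes mec-4 and mec-10, and the tubulin acetyltransferase gene mec-17, which is also in the modification list.

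**Figure D4:**
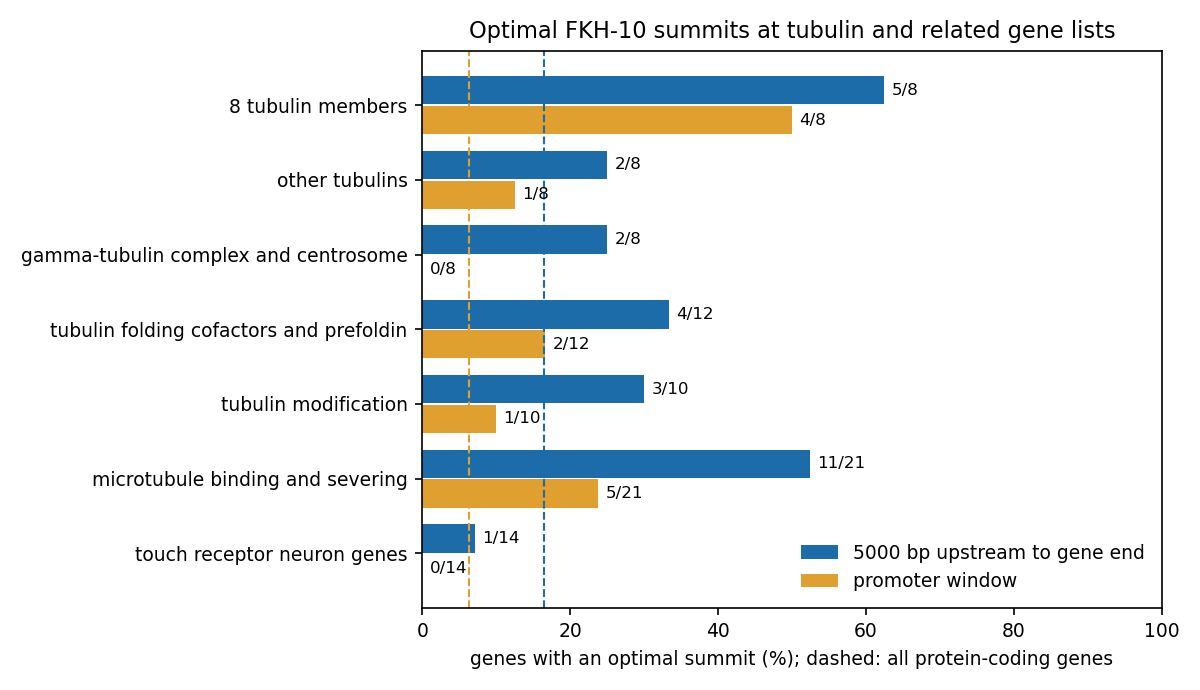
Bars give the share of genes in each list with an optimal summit, in percent, from 5000 bp upstream to the gene end (blue) and in the promoter window (orange), with counts beside them. Dashed lines are the shares of all protein-coding genes, 16.5% and 6.38%. The 8 tubulin genes stand at 5 of 8 and 4 of 8, and the touch receptor neuron genes at 1 of 14 and 0 of 14.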

How the data were processed

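FKH-10 ChIP-seq peak lists of 2 replicates, on ce11, were used. Alignments and a control file are named as the inputs of every list, and both replicates as those of the pooled list, per the submitters' deposited text files. Column 7 of each deposited list is a signal value on a scale that is not given, and column 9 holds the authors' −log10 q, which is capped: 1868 optimal peaks are tied at its maximum. No aligner, peak caller or discovery rate threshold is named in the sources used here. Lists on ce10 were not used.

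Summits (column 2 plus column 10) were assigned in Python 3.11.15 with pandas 2.3.3 to Ensembl release 115 genes (WBcel235), and ranked by signal within each list. Promoter sequences were read from the RefSeq genome of that assembly. Window counting was checked on planted summits. No count was tested, since the members are not replicates. The members, the gene lists, the words and the rule for named genes (all members, and per list up to 3 genes with the highest optimal signal; pfd-3, unc-119 and the touch-neuron genes without a summit were named after their values were seen) were chosen with earlier results of these data known. hdac-6 and fign-1 matched no symbol. Alternatives were other windows, other assignments, other peak sets, single replicates, ranks by q and a wider pairing distance.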

Additional observations from a re-analysis of the deposited data

How the results depend on the processing

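The count of general tubulin genes with an optimal summit, 4 of 5, fell to 2 when a summit counted only for the nearest start and to 2 with the 50% of optimal peaks with the highest signal; the touch-neuron count, 1 of 2, fell to 0 with that subset. With the first 2602 peaks of a single replicate, the general count was 3 whichever replicate was left out, with tbb-1 lost each time, and the touch-neuron count was 1. Both counts stayed within 1.5 times of these values with the other windows and with all pooled peaks. The number of all protein-coding genes with an optimal summit, 3300, was 1275 with the promoter window, 1767 by nearest start, 1798 with that subset and 14128 with all pooled peaks, and ran from 3177 to 3334 without a replicate. Of 18 ranks of the strongest summits of the 6 genes ranked in both replicates, by q or in a single replicate, 14 moved by more than the spread between replicates, and 16 of the 18 lay nearer the top of the list; lists differ in length and q is capped. All 8 optimal summits were paired in both replicates within 200 bp as within 100 bp, though the optimal set was itself selected for agreement between replicates. Leaving out unc-119, chosen after the data were seen, gave 10 of 20 genes of the microtubule binding and severing list in place of 11 of 21. mec-7 had no pooled summit to rank, and tba-4, with none in replicate 2, had no spread to compare with: its strongest summit stood at 55.5% of the pooled list by signal, 55.5% by q and 32.0% in replicate 1. No paired analysis was possible because there is 1 group. The precision is limited by the unknown read depth, by 2 replicates and by the absence of values below each list's minimum.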
